A study of Mus musculus with 4 samples.

Results

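Cytosolic ribosomal protein genes encode the protein part of the ribosomes that translate nuclear mRNAs. They were taken here as the protein-coding genes whose symbol starts with Rpl or Rps and a digit or with Rplp, or is *Rpsa*, leaving out the Rps6k kinases and symbols with -ps. This gave 89 of 21883 protein-coding genes of the GRCm38 annotation. Of these, 77 are the canonical genes, with 31 for the small subunit and 46 for the large subunit. Another 10 are paralogs (*Rpl3l*, *Rpl7l1*, *Rpl10l*, *Rpl22l1*, *Rpl32l*, *Rpl36al*, *Rpl37rt*, *Rpl39l*, *Rps27l*, and *Rps27rt*), and 2 match by name only (*Rps19bp1*, which encodes a binding partner of Rps19, and *Rps23rg1*, a gene made by retroposition of *Rps23*).

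Their promoters were examined in H3K27ac ChIP-Seq peaks of 2 libraries of mouse liver sinusoidal endothelial cells (LSECs), the fenestrated endothelium of the liver's capillaries, which the series profiled to find candidate regulatory elements. The libraries carry the replicate numbers 2 and 3, form 1 condition, and each have an input library of the same number that was not analysed here. The methods describe purification of LSECs from perfused mouse livers with anti-CD146 microbeads, which bind endothelial cells, and a short culture. Cells were fixed in 1% formaldehyde for 10 minutes. The sample records give no genotype, treatment, age, or sex of the mice and do not say whether the replicates came from separate animals. The records describe sonication and a ligation-type library kit, whereas the methods name tagmentation.

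The authors listed 26975 peaks for replicate 2 and 64498 for replicate 3, and the read depth behind the lists is unknown. Of 14 LSEC markers, 10 had a promoter peak in replicate 2 and 14 in replicate 3. The markers *Stab2*, *Clec4g*, *Mrc1*, and *Tek* had one in replicate 3 only. Of 12 hepatocyte markers, 2 had a promoter peak of both libraries and 4 had one in replicate 3. Of 7 Kupffer cell markers and 7 hepatic stellate cell markers, 0 had one in either library. Of 7 lymphocyte markers, 1 had one in replicate 2 and 2 in replicate 3, and of 5 cholangiocyte markers 0 and 1. Over all protein-coding genes the shares were 43.4% in replicate 2 and 53.9% in replicate 3. The part that other cells play in the ribosomal protein peaks was not tested, since these genes are used by every cell type.

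H3K27ac is the acetylation of lysine 27 of histone H3, a mark laid down by the acetyltransferases p300 and CBP at active promoters and enhancers. Ribosomal protein genes are among the most strongly transcribed genes of a cell, usually have CpG-rich promoters without a clear TATA box, and are transcribed in step so that subunits are made in matching amounts. Many of their transcripts start with a cytosine followed by a run of pyrimidines, the terminal oligopyrimidine (TOP) start, through which mTOR and LARP1 control translation. In growing cells ribosome synthesis takes a large share of all transcription, and LSECs are long-lived cells that divide again when the liver regenerates.

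Start sequences are shown first for the genes on which the results below turn. Each line gives 60 bases before and 15 bases after a transcription start listed by RefSeq (GRCm38.p6), 5′ to 3′ on the gene's strand. Capitals mark the pyrimidine run of at least 5 bases nearest the start, and positions count from 1 at the first transcribed base, with -1 just before it. *Rpl37* (chr15:5116553-5116627, plus strand), *Rpl15* (chr14:18270972-18271046, minus strand), and *Rps21* (chr2:180257319-180257393, plus strand) are shown for their high fold enrichment.
Rpl37: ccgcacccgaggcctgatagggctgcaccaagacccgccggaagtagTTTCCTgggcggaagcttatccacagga
Rpl15: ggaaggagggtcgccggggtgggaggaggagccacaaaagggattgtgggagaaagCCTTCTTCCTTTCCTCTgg
Rps21: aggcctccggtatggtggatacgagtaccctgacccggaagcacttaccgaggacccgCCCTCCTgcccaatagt
*Rpl4* (chr9:64173327-64173401, plus strand) and *Rpl6* (chr5:121204441-121204515, plus strand) are shown for their low fold enrichment.
Rpl4: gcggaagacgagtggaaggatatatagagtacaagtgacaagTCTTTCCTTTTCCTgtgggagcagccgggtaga
Rpl6: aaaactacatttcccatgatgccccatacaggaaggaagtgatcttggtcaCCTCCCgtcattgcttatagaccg
*Rpl35* (chr2:39005117-39005191, minus strand), *Rps10* (chr17:27635230-27635304, minus strand), and *Rps6* (chr4:86857353-86857427, minus strand) are shown as clear TOP starts, in which the listed start lies inside the capitals.
Rpl35: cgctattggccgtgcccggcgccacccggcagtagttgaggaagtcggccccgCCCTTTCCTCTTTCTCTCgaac
Rps10: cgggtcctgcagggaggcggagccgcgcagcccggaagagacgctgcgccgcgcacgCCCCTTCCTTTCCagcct
Rps6: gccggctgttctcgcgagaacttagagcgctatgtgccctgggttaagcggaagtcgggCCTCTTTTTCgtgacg
*Rps2* (chr17:24720003-24720077, plus strand), *Rpl19* (chr11:98026650-98026724, plus strand), and *Rps27l* (chr9:66946026-66946100, plus strand) are shown because these starts lie inside the annotated gene, far from its outer end.
Rps2: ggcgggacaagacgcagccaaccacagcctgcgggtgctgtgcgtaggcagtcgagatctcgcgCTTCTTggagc
Rpl19: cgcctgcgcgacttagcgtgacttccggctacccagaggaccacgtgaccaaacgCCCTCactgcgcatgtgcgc
Rps27l: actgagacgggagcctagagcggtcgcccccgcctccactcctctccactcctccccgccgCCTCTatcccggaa
*Rps27* (chr3:90213634-90213708, minus strand) and its retroposed relative *Rps27rt* (chr9:114982725-114982799, minus strand) are shown for the stretch they share.
Rps27: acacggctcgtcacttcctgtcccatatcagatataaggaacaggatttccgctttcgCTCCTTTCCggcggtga
Rps27rt: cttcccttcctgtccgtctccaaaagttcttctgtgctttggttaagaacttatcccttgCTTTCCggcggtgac
A start was listed for 69 of the 89 genes and for 57 of the 77 canonical ones. No start was listed for 20 genes, among them *Rpl3*, *Rpl7*, *Rpl8*, *Rpl17*, *Rpl21*, *Rpl23a*, *Rpl29*, *Rpl30*, *Rpl32*, *Rpl36*, *Rplp1*, *Rps14*, *Rps20*, *Rps27a*, and *Rps29*.

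Nearly every canonical ribosomal protein gene carried H3K27ac at its promoter in both libraries. A promoter peak is here a peak within 1 kb of either end of the annotated gene, and peaks of the libraries counted as shared from an overlap of 1 bp. In replicate 2, 74 of 77 canonical genes (96.1%) and 79 of all 89 (88.8%) had a promoter peak, against 43.4% of all protein-coding genes. In replicate 3, the counts were 76 canonical genes (98.7%) and 81 in all (91.0%), against 53.9%. Overlapping peaks of both libraries were found at the same 79 genes as in replicate 2, against 43.4% of all genes, and against 36.2% of the 10793 genes no longer than the longest ribosomal protein gene (16.8 kb). In a bulk sample, acetylation in some of the cells and weaker acetylation in all of them cannot be told apart.

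Counted at transcription starts, every canonical gene with a listed start had a peak in both libraries. Of the 57 canonical genes with a listed start, 57 had overlapping peaks of both libraries within 1 kb of one, and 62 of 69 did when paralogs and the genes matched by name were included, against 45.6% of 17491 genes with a listed start. Counted anywhere in the gene body or within 1 kb of it, 77 of 77 canonical genes and 83 of all 89 had such peaks, against 51.2% of all genes. The last 2 counts use placements chosen after the peaks had been seen.

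**Figure D1:**
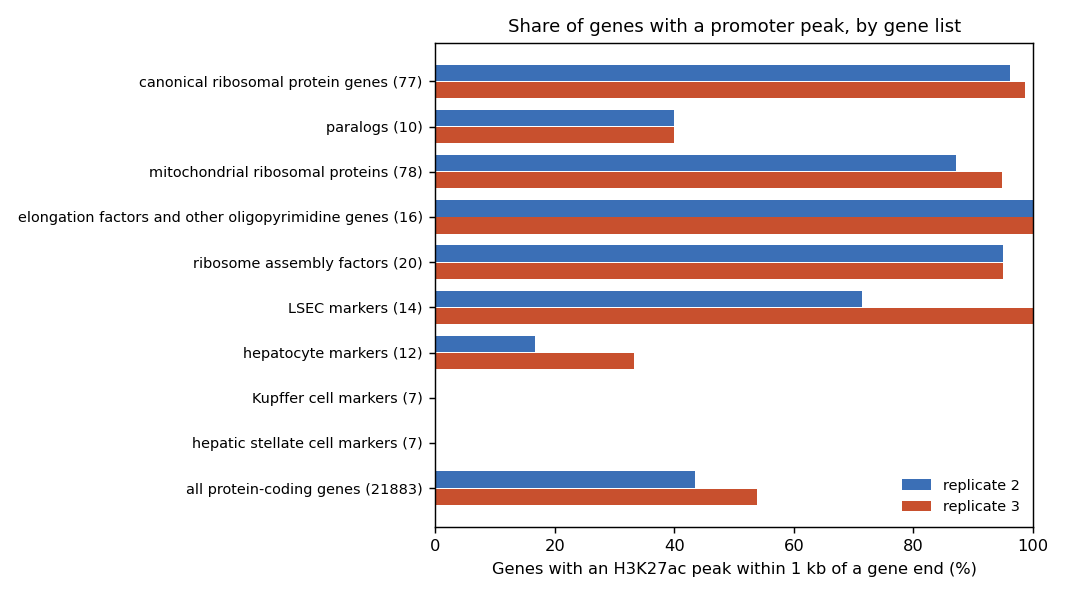
Share of genes with an H3K27ac promoter peak (percent, horizontal axis) in replicate 2 and replicate 3, for gene lists with their number of genes in parentheses. The canonical ribosomal protein genes stand at 96.1% and 98.7%, beside 43.4% and 53.9% of all protein-coding genes and 40% of their paralogs in each library.

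Other genes of the translation machinery had similarly high shares. Overlapping peaks of both libraries lay at 68 of 78 mitochondrial ribosomal protein genes (87.2%), at 19 of 20 ribosome assembly factors (95.0%), and at 16 of 16 elongation factors and other genes known for TOP starts. *Fau*, whose product is a ribosomal protein fused to a ubiquitin-like sequence, and *Rack1*, a scaffold on the small subunit, also had them. Fold enrichment is the caller's ratio of signal over background at a peak. It was 13.8 in replicate 2 and 54.3 in replicate 3 at *Fau*. It was 11.5 and 31.9 at *Rack1*. These values lie within the range of the canonical genes.

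In strength and width, the promoter peaks of ribosomal protein genes stood above the middle of all promoters in these lists, but most were not among the extremes. The strongest promoter peak of the 79 genes had in replicate 2 a median of 19.7 and a range of 6.55 to 44.7 for fold enrichment, against a median of 16.3 over other protein-coding genes with a promoter peak. In replicate 3 the median over 81 genes was 53.3, with a range of 5.90 to 148, against 38.7. Percentiles place each gene among all protein-coding genes with a promoter peak in the same library, and the median percentile was 61.9 in replicate 2 and 64.8 in replicate 3. The medians were 73.3 and 76 at the elongation factors and other genes known for TOP starts, and 61.9 and 74.4 at the ribosome assembly factors. Mitochondrial ribosomal protein genes had lower ones, 43.1 and 50.3. In replicate 2, 24 of 79 genes were in the top 25% and 6 in the top 10% of fold enrichment. In replicate 3, 29 of 81 were in the top 25% and 10 in the top 10%. At the lower end, 7 genes in replicate 2 and 3 in replicate 3 were in the bottom 25%. Those in replicate 3 were *Rpl23a*, *Rpl19*, and *Rps2*. The peaks counted at *Rpl19* (9.93) and *Rps2* (5.90) lay away from their listed starts, inside these genes. Peaks covering those starts had 33.6 and 78.2, at percentiles 44 and 83.1. The lowest value in replicate 2, 6.55, came from a peak at the 3′ end of *Rpl3l*.

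By the widest peak of each gene and by covered bases, the difference in width was larger in replicate 3 than in replicate 2. The widest promoter peak had a median width of 532 bp in replicate 2, against 477 bp at other genes, and of 1236 bp in replicate 3, against 901 bp. These medians were at percentiles 58.0 and 74.0. Over every promoter peak the percentiles were close, at 62.8 and 64.9. All promoter peaks of a gene together covered a median of 609 bp in replicate 2 (other genes, 529 bp) and 1409 bp in replicate 3 (other genes, 1046 bp), at percentiles 60.4 and 71.9. Several separate promoter peaks were listed for 12 of the 79 genes in replicate 2 and for 44 of the 81 in replicate 3. At other genes they were listed for 1865 of 9416 and 4054 of 11708. The share was thus lower than at other genes in replicate 2 and higher in replicate 3. Taken peak by peak, the 92 promoter peaks of these genes in replicate 2 had a median width of 505.5 bp, and 9840 other promoter peaks one of 417 bp. In replicate 3, 142 peaks had a median width of 887.5 bp and 14536 others one of 658 bp.

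The order of the genes by fold enrichment was largely shared by the libraries, while that by covered bases was shared less. Over the 79 genes with a peak of both libraries, Spearman's rho between replicates 2 and 3 was 0.83 for fold enrichment and 0.53 for covered bases, against 0.86 and 0.68 over 9409 other genes. Genes share libraries and are not independent replicates, so these values are descriptions. All 79 genes had a higher fold enrichment in replicate 3, with a median ratio of 2.88, and so did 99.6% of the other genes, with a ratio of 2.87. The top 25% of both libraries held 21 of the 79 genes, and the bottom 25% of both held only *Rpl23a*. Of the 9409 other genes, 1945 were in the top 25% of both and 867 in the bottom 25% of both.

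**Figure D2:**
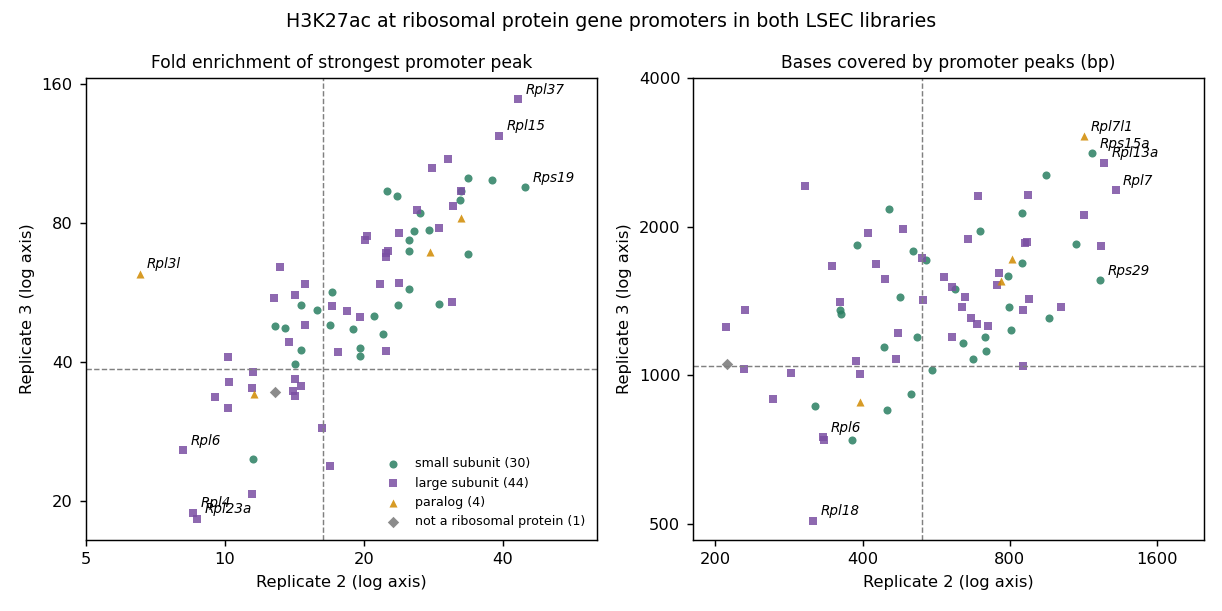
Each point is 1 of the 79 genes with promoter peaks of both libraries, placed by its value in replicate 2 (horizontal, log axis) and replicate 3 (vertical, log axis), for the fold enrichment of the strongest promoter peak (left) and the bases covered by promoter peaks in bp (right). Dashed lines mark the medians of other genes with a promoter peak, 16.3 and 38.7 for fold enrichment and 529 bp and 1046 bp for covered bases, and *Rpl3l* lies apart from the other genes at 6.55 and 62.2.

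Among small-subunit genes, 30 of 31 had promoter peaks of both libraries, and their median fold enrichment was 23.1 in replicate 2 and, over 31 genes, 53.4 in replicate 3, at percentiles 71.4 and 64.8. *Rps19*, the gene most often mutated in Diamond-Blackfan anemia, had 44.7 in replicate 2 and 95.7 in replicate 3. *Rps21*, whose start sequence is shown above, had 33.6 and 100. Both genes were in the top 10% of both libraries, with mean percentiles of 94.4 and 91.3. *Rps4x*, an X-linked gene, was the lowest of those with peaks of both libraries, with 11.5 and 24.8 and a mean percentile of 31.5. Its promoter peaks covered 320 bp in replicate 2 and 868 bp in replicate 3, also near the low end. *Rpsa*, which encodes a ribosomal protein also known as the laminin receptor, had 25.8 and 76.7, at percentiles 77.9 and 82.1.

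Among large-subunit genes, 44 of 46 had promoter peaks of both libraries. Their median values were 17 in replicate 2 and, over 45 genes, 51.6 in replicate 3, at percentiles 53.3 and 63.2. In replicate 2, 6 of them and 0 small-subunit genes were in the bottom 25%. In replicate 3 these counts were 2 and 1. *Rpl37* had 43.3 in replicate 2 (peak chr15:5116140-5117008) and 148 in replicate 3 (chr15:5115766-5117480). Its mean percentile of 98.2 was the highest of all 79 genes. *Rpl15*, which is mutated in some patients with Diamond-Blackfan anemia, followed with 39.3 and 124 and a mean percentile of 96.2. *Rpl5* and *Rpl11*, whose products bind 5S rRNA and, when free, the p53 regulator Mdm2, had lower values. *Rpl5* had 14.9 and 48.1, and *Rpl11* had 10.2 and 41.1.

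The lowest large-subunit genes were *Rpl23a*, *Rpl4*, *Rpl6*, and *Rpl35a*. *Rpl23a*, whose product forms a docking site where the new protein leaves the ribosome, had 8.73 and 18.3. *Rpl4*, whose product lines the exit tunnel, had 8.54 and 18.9. In neither library did this strongest peak of *Rpl4* cover its start, and an end (5′ or 3′) of another gene lay within 1 kb of that peak. The peak at the start had 6.71 in replicate 2 and 14.4 in replicate 3. *Rpl6* had 8.13 and 25.8, and *Rpl35a* had 11.5 and 20.8. Each of these 4 genes was below the median of all promoters in both libraries, with mean percentiles of 20.7, 20.8, 24.3, and 28.6.

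The stalk of the large subunit, which recruits the elongation factors, is built from the products of *Rplp0*, *Rplp1*, and *Rplp2*. Their fold enrichments were 23.8 and 59.4 at *Rplp0*, 20.1 and 73.4 at *Rplp1*, and 13.8 and 44.3 at *Rplp2*. *Rplp0* and *Rplp1* were above the median of all promoters in both libraries, and *Rplp2* was above it in replicate 3 only, at percentiles 40.9 and 56.1.

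**Figure D3:**
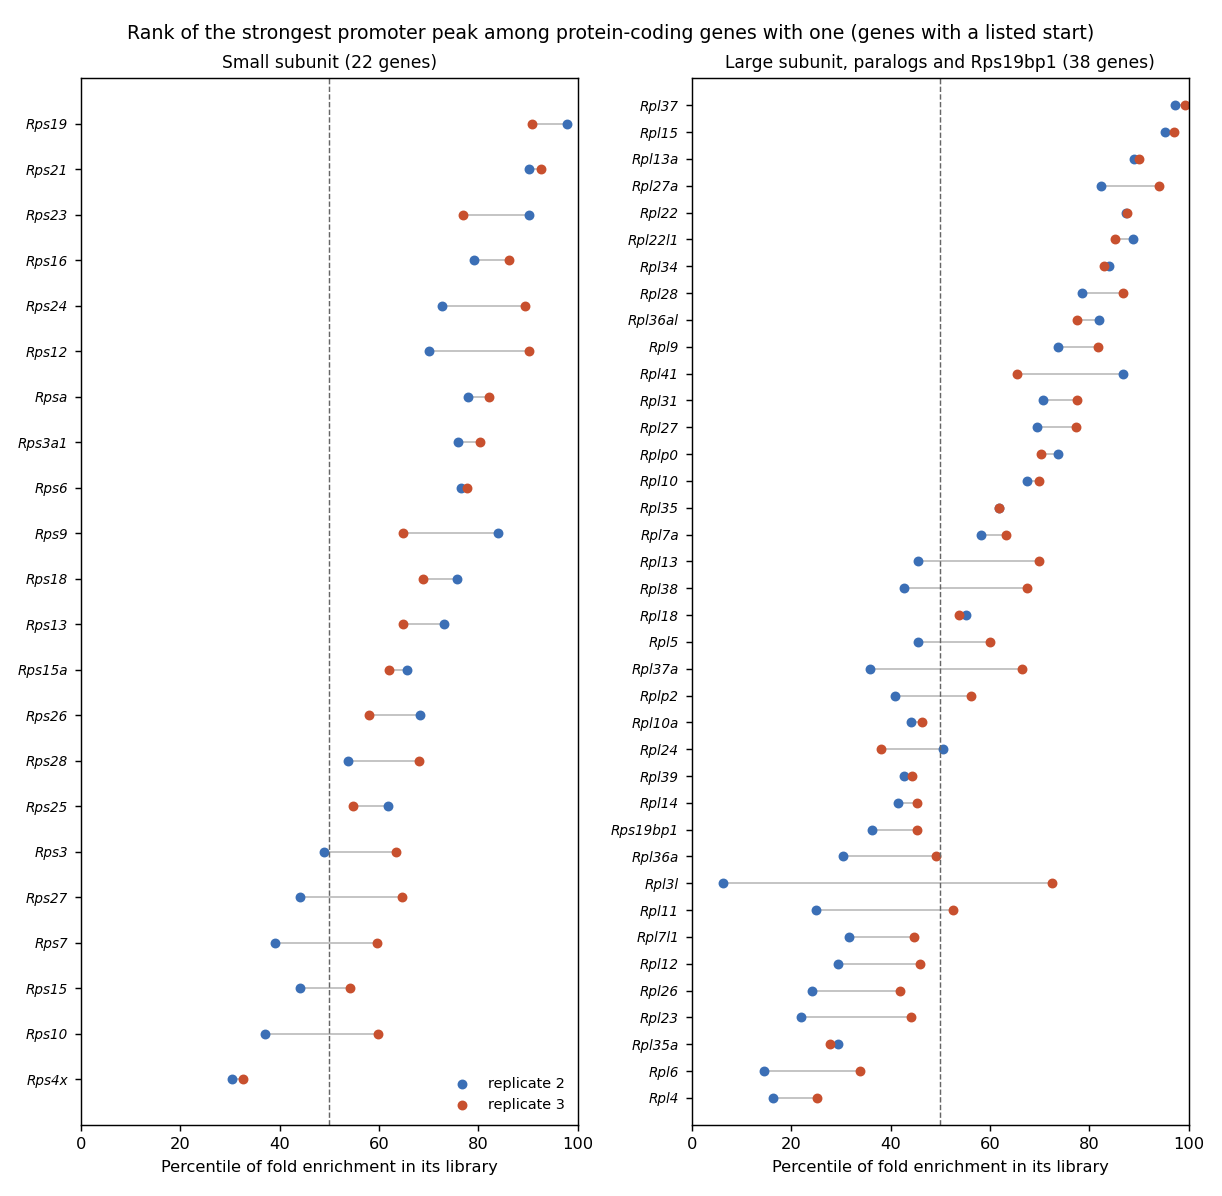
Percentile of the fold enrichment of each gene's strongest promoter peak (horizontal axis) in replicate 2 and replicate 3, for the small-subunit genes (left) and for the large-subunit genes, paralogs, and *Rps19bp1* (right) that have promoter peaks of both libraries and a listed start, ordered by the mean of both. *Rpl37* is highest, with a mean of 98.2, and *Rpl4* lowest, with a mean of 20.8, and the dashed line marks the 50th percentile.

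By covered bases, other genes led. *Rpl13a*, the host of 4 small nucleolar RNAs, was covered over 1248 bp in replicate 2 and 2698 bp in replicate 3. *Rps15a* was covered over 1180 and 2821 bp, *Rpl7l1* over 1132 and 3058 bp, *Rpl7* over 1318 and 2376 bp, and *Rpl34* over 1136 and 2119 bp. Except at *Rpl7*, for which no strand was listed, these totals include a separate peak at the 3′ end of the gene in both libraries. At *Rpl13a* and *Rps15a* that 3′ peak was also the strongest. The peak at the start had fold enrichments of 31.2 and 61.2 at *Rpl13a* and 16.9 and 28.0 at *Rps15a*. By this count the least covered was *Rpl18*, with 317 and 508 bp, which are those of a peak at the gene's outer end only. Its listed start lies 2604 bp inside the gene and was covered by peaks of 720 bp in replicate 2 (fold enrichment 16.9) and 1166 bp in replicate 3 (51.9). The next lowest were *Rpl23a* (333 and 739 bp), *Rpl6* (332 and 749 bp), and *Rpl36a* (262 and 897 bp). *Rpl23a*, *Rpl6*, and *Rps4x* were thus among the 5 lowest by both measures.

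Peaks close to another gene cannot be assigned to a ribosomal protein gene alone. An end of another protein-coding gene, either 5′ or 3′, lay within 1 kb of the strongest peak at some of these genes. They numbered 21 of 79 in replicate 2 (26.6%) and 25 of 81 in replicate 3 (30.9%), against 29.5% and 27.9% of other genes. *Rpl37*, *Rpl15*, and *Rps21* were among them, and *Rps19* was not. Among genes without such a neighbour, the median percentile of fold enrichment of the ribosomal protein genes was 64.8 in replicate 2 and 68.4 in replicate 3.

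Peaks sat astride the start and, in replicate 3, reached farther on both sides of it than at other promoters, with the larger difference downstream. At the 62 genes with a peak within 1 kb of the listed start nearest the gene's outer end, the summit of the strongest peak lay at a median of -48 bp in replicate 2 and -44 bp in replicate 3, where negative values are upstream. At other genes it lay at -49 and -46 bp. The peak covered the start itself at 60 of 62 genes in replicate 2 and 61 of 62 in replicate 3 (96.8% and 98.4%), against 85.9% and 89.3% of other genes. The exceptions were *Rpl22*, whose peaks lay around a start listed 1290 bp inside the gene, in both libraries, and *Rpl4* in replicate 2. In replicate 3 the strongest peak reached from a median of -469.5 bp to 706.5 bp, and at other genes from -413 to 473 bp. The bin 300 to 350 bp downstream was covered at 96.8% of the ribosomal protein genes and 72.0% of others, and the bin 800 to 850 bp downstream at 43.5% and 29.2%. Upstream, the shares were 82.3% and 67.0% at 300 to 350 bp and 17.7% and 19.6% at 800 to 850 bp, so the peaks also reached somewhat farther upstream close to the start. In replicate 2 the medians were -274.5 to 213.5 bp against -257 to 196 bp. The bin 100 to 150 bp downstream was covered there at 87.1% of the ribosomal protein genes and 73.7% of others. Farther downstream the order was the other way in replicate 2, with 27.4% and 30.6% at 300 to 350 bp and 0% and 7.65% at 800 to 850 bp.

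**Figure D4:**
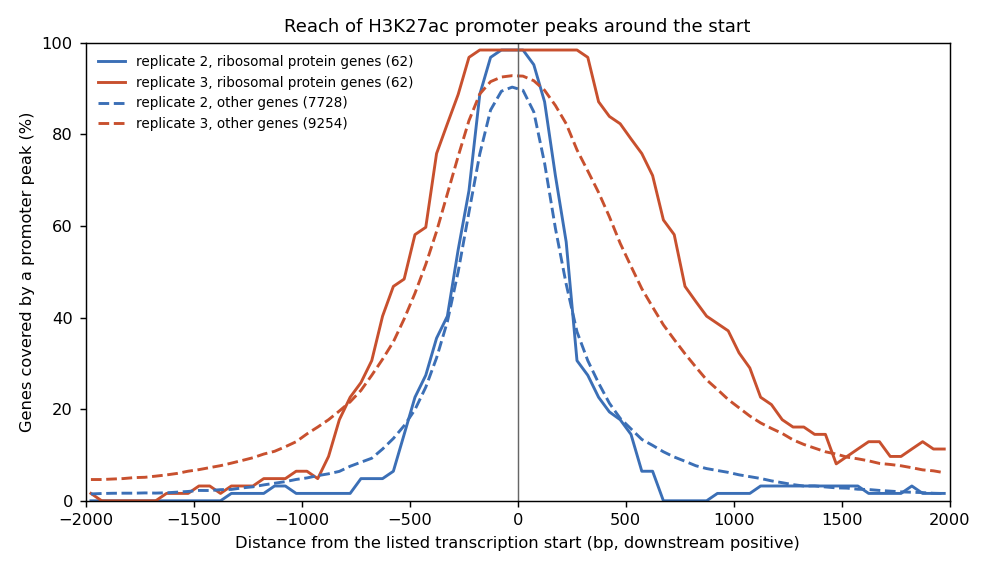
Share of genes (percent, vertical axis) covered by a peak in each 50-bp bin around the listed transcription start (horizontal axis, bp, downstream positive), for the 62 ribosomal protein genes (solid) and other genes (dashed) with a peak within 1 kb of the start, in each library. In replicate 3 the solid line stays above the dashed line from the start to beyond the bin at 800 to 850 bp (43.5% against 29.2%), while in replicate 2 it is above near the start (87.1% against 73.7% at 100 to 150 bp) and below from 250 to 900 bp downstream.

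Separate peaks at the 3′ end were listed for a larger share of these genes than of others. Where the strand was listed, a peak within 1 kb of the 3′ end that was not also within 1 kb of the 5′ end was found at 7 of 69 genes in replicate 2 (10.1%) and 22 of 69 in replicate 3 (31.9%), against 3.86% and 9.87% of 17422 other genes. Most of those in replicate 3 were weak, with a median fold enrichment of 7.70 and a range of 2.85 to 93.7. At 7 of these 22 an end of another gene lay within 1 kb of the peak. The same held at 5 of the 7 in replicate 2, where the median was 12.2. At other genes the medians were 10.7 in replicate 2 and 11.7 in replicate 3. There an end of another gene also lay nearby at 381 of 672 and 706 of 1720. Ribosomal protein genes are short, with a median length of 3183 bp against 17290 bp. Among genes over 4 kb, a peak lay within 1 kb of the 3′ end at 3 of 27 ribosomal protein genes in replicate 2 (11.1%) and 9 in replicate 3 (33.3%), against 4.06% and 10.6%.

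The 3 canonical genes without promoter peaks of both libraries had peaks of both inside the annotated gene. *Rps2*, on chromosome 17, had a listed start 1942 bp inside the gene's outer 5′ end, and a peak of each library covered it. The peak of replicate 2 was 573 bp wide with a fold enrichment of 26.4, and that of replicate 3 was 1199 bp wide with 78.2. *Rpl19* had a listed start 4707 bp inside the gene, covered by peaks of 457 bp (fold enrichment 14.2) and 1246 bp (33.6). *Rpl17*, on chromosome 18, had a peak of 860 bp in replicate 2 (fold enrichment 14.0), 1300 to 2159 bp from its lower coordinate, and one of 1247 bp in replicate 3 (49.8). Within 1 kb of their outer ends, *Rps2* and *Rpl19* had only weaker peaks of replicate 3, with fold enrichments of up to 5.90 and 9.93. The peaks at the internal starts of *Rps2* and *Rpl19* and those inside *Rpl17* would have ranked between percentiles 41.4 and 83.1 of fold enrichment among promoters. Those of *Rpl19* were below the middle in both libraries, at 42.6 and 44. At *Rps2* and *Rpl19* the promoter peak was thus listed at the internal start and not at the outer end.

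**Figure D5:**
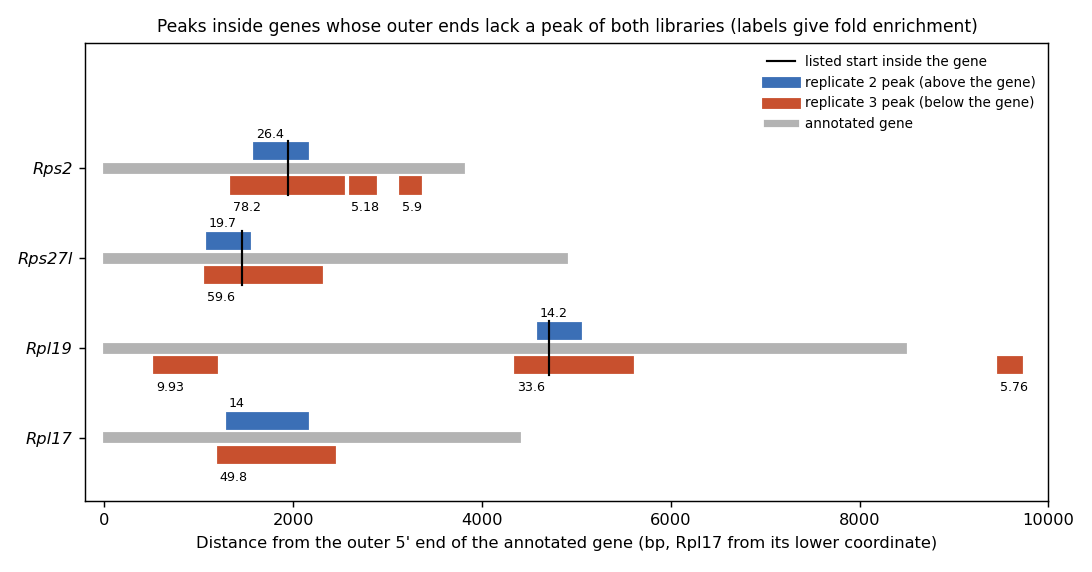
Peaks of replicate 2 (above) and replicate 3 (below) along 4 annotated genes (grey), in bp from the outer 5′ end, or for *Rpl17* from the lower coordinate, with the listed internal start as a vertical line and each peak's fold enrichment beside it. At *Rps2*, *Rps27l*, and *Rpl19* a peak of each library covers the internal start, at 1942, 1462, and 4707 bp.

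The paralogs differed among themselves. Of 10, 4 had promoter peaks of both libraries (*Rpl3l*, *Rpl7l1*, *Rpl22l1*, and *Rpl36al*), which is 40% against 43.4% of all protein-coding genes. *Rpl22l1* had fold enrichments of 32.5 and 82.2 beside 31.2 and 87.3 at *Rpl22*. *Rpl36al* had 27.8 and 69.3 beside 11.5 and 38.1 at X-linked *Rpl36a*, higher in both libraries. However, an end of another gene lay within 1 kb of the *Rpl36al* peak and not of that at *Rpl36a*. The values can therefore not be assigned to *Rpl36al* alone. *Rpl7l1* had 11.6 and 34.2 beside 14.2 and 36.8 at *Rpl7*. *Rpl3l*, which replaces *Rpl3* in heart and skeletal muscle, had a peak only at its 3′ end, where *Msrb1* also lies, with 6.55 and 62.2 beside 20.3 and 74.9 at *Rpl3*. No peak was listed at its 5′ end in either library.

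*Rps27l*, a p53-responsive paralog, fell just outside the 1-kb limit. Its peaks began 1086 bp (replicate 2) and 1069 bp (replicate 3) inside the gene and covered a start listed 1462 bp from the outer end, with fold enrichments of 19.7 and 59.6 beside 14.6 and 53.1 at *Rps27*. *Rpl10l*, which stands in for X-linked *Rpl10* in male germ cells, *Rpl39l*, which is used in the testis, and *Rpl32l* had 0 peaks in the gene or within 3 kb of it in either library. Their canonical genes *Rpl10* (21.7 and 58.9), *Rpl39* (14.2 and 33.9), and *Rpl32* (16.9 and 23.9) had peaks of both. *Rpl37rt* had only a 165-bp peak of replicate 3 inside the gene, with a fold enrichment of 7.16, beside the 43.3 and 148 of *Rpl37*. *Rps27rt* had none within 1 kb and only a replicate 3 peak beyond its 3′ end, 3252 bp downstream of its listed start. Of the genes matched by name, *Rps19bp1* had 12.8 and 34.6, and *Rps23rg1* had 0 peaks. How reads that map to several places were treated is not given in the sources used here, so values of genes with near-identical copies are uncertain.

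The start sequences shared features that the choice of genes did not use. At the listed start nearest the gene's outer end, a C followed by at least 4 pyrimidines was found in 14 of 69 genes (20.3%), against 2.17% of all 17491 genes with a listed start and 0 of 69 mitochondrial ribosomal protein genes. Allowing such a start within 5 bases of the listed one gave 31 of 69 (44.9%), against 18.8%. The longest pyrimidine run touching the 25 bases on either side of the start was a median of 9 bases, against 5, and was at least 8 bases in 55.1% of the genes, against 23.4%. The 14 genes were *Rpl14*, *Rpl15*, *Rpl28*, *Rpl35*, *Rpl38*, *Rplp2*, *Rps6*, *Rps10*, *Rps15a*, *Rps18*, *Rps21*, *Rps27*, *Rpl32l*, and *Rps27rt*. Of these, all 12 canonical genes had promoter peaks of both libraries, and the 2 paralogs had none.

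*Rps27rt* had a TOP start and no promoter peak. The longest stretch shared by the 300-base start windows of *Rps27rt* and *Rps27* was 38 bases, which began at base 1 of *Rps27rt* and base 2 of *Rps27* and thus lay in the transcribed part only. In the other pairs of paralog and canonical gene with both starts listed it was at most 8 bases. The summits at *Rps27* lay at -40 and -45 bp, before the shared stretch.

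Letters of known promoter motifs were counted on both strands in the 250 bases before and 50 bases after the start, and none of the motifs contains another. CCGGAAG, which holds the core bound by ETS factors, was present in 36.2% of the ribosomal protein genes, 11.9% of all genes with a listed start, and 34.8% of mitochondrial ribosomal protein genes. ATGGCG, which holds the core of the YY1 motif, was present in 29.0%, 11.2%, and 27.5% of the same groups. GGGCGG, the GC box bound by Sp1, was present in 58.0% of the ribosomal protein genes and 46.3% of all genes, but in 68.8% of genes with promoter peaks of both libraries. TATAAA was present in 11.6% and 13.3%, and in 6.54% of genes with promoter peaks of both libraries. Among the latter, CCGGAAG was present in 21.0% and ATGGCG in 17.7%. The observed over expected frequency of CpG had a median of 0.85, against 0.58 over all genes with a listed start and 0.80 over those with promoter peaks of both libraries, with a GC content of 57.0% against 56.3% and 61.7%.

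Canonical genes with and without these features were compared by the median percentile of fold enrichment. The 12 genes with a C and 4 pyrimidines at the start had median percentiles of 63.7 in replicate 2 and 66.1 in replicate 3. The 45 without had 61.9 and 64.8. Allowing such a start within 5 bases of the listed one, 26 genes with it had 69.5 and 64.8. The 31 without had 50.5 and 64.8, so these groups differed in replicate 2 only. With CCGGAAG the values were 68.3 and 61.8, and without it 56.7 and 64.8, in opposite order in the libraries. With GGGCGG they were 67.4 and 66.5, and without it 52.2 and 60, so genes with the GC box were higher in both libraries. The 6 genes with TATAAA, 5 of them with promoter peaks of both libraries, had 53.8 and 58.6, and those without 63.7 and 64.8, lower with the motif in both libraries. With ATGGCG the values were 67.5 and 66.5, and without it 61.9 and 63.2. These are descriptions, and the groups were not tested.

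Hosts of small nucleolar RNAs, which guide the modification of ribosomal RNA and are cut from introns, made up 30 of the 77 canonical genes (39.0%), against 1.70% of all protein-coding genes. Their medians for fold enrichment were 19.4 and 58.9, beside 19.7 and 52.8 at the 47 other canonical genes. The 4 X-linked genes (*Rpl10*, *Rpl36a*, *Rpl39*, and *Rps4x*) had medians of 12.9 and 36.0, below the 19.9 and 53.3 of the autosomal genes in both libraries. Among them *Rpl10*, with 21.7 and 58.9, lay above both autosomal medians, so the groups overlapped.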

How the data were processed

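H3K27ac ChIP-Seq peak lists of mouse LSEC replicates 2 and 3 were used, and both inputs were not analysed here. The authors made 1 list per library, not pooled. The submitters' processing notes name cutadapt, BWA 0.7.17, Picard 1.67, MACS2 2.0.10, bedtools 2.27.1, and build mm10, and whether input entered the calls is not given in the sources used here. The deposited columns hold fold enrichment (a ratio to background), −log10 p-values and −log10 q-values by the authors' caller, and a score, a rescaled form of the deposited −log10 q-value. All listed peaks had a q-value under 0.01. No read counts were given, so depth and counting precision are unknown, and a more sensitive library lists more and wider peaks.

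Gene ends, names, and start sequences are those of RefSeq (GRCm38.p6). A promoter peak lay within 1 kb of a gene end, and a shared one overlapped by at least 1 bp. Strength was ranked within a library. With 1 condition no test was possible, so counts and medians stand beside those of all protein-coding genes. The genes named are those without peaks of both libraries, the 5 highest and 5 lowest by mean percentile of fold enrichment and of covered bases, the stalk genes, *Rpsa*, paralogs, and genes linked to Diamond-Blackfan anemia. Some genes that this rule names are not reported here. Other genes named, such as *Rpl22* and *Rpl10*, were chosen after their values were seen. Members and lists were chosen with earlier results of these data known. Alternatives changed the q-value, number of peaks, window, overlap, gene set, ranking, and joining of peaks. Counting of overlaps was checked on simulated peaks. Python 3.11.15, numpy 2.4.6, pandas 2.3.3, and matplotlib 3.10.9 were used.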

Additional observations from a re-analysis of the deposited data

How the results depend on the processing

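No paired analysis was possible because replicates 2 and 3 of H3K27ac belong to 1 condition, and their same-numbered inputs were not used here. Over 12 results and 78 alternatives, 71 stayed within their limit, 7 moved, of which 4 upward, and 0 reversed. The limit was 1.5 times for counts and 1 SD between the 2 libraries for percentiles and distances. It is thus wider where the libraries differ more. Some alternatives could not move: the equal number of peaks, 26975, is the whole replicate 2 list, so replicate 2 values stayed by construction. The counts of alternatives are therefore no measure of robustness. The number of genes with peaks of both libraries, 79, was 39 (43.8%, against 22.0% of all protein-coding genes) with a reciprocal overlap of at least 50%, which the wider replicate 3 peaks often miss by construction, and ranged from 79 (without replicate 3) to 81 (without replicate 2). It was 77 within 0.5 kb and 82 within 2.5 kb. The median percentile of fold enrichment was 64.8 in replicate 2 and 68.4 in replicate 3 without another gene end within 1 kb of the peak, an alternative chosen after seeing the data. In replicate 3 it was 59.0 with equal numbers of strongest peaks, 67.1 among genes no longer than the longest ribosomal protein gene, and 62.1 over every promoter peak. The cause of these changes was not tested. Starts with a C and 4 pyrimidines numbered 31 within 5 bases of the listed start, by construction no fewer than the 14 at it. The percentile of width in replicate 3, 74.0, was 70.0 with the same number of peaks and 64.9 over every promoter peak, within its limit. In replicate 2 it was 58.0 and, over every promoter peak, 62.8, so the larger difference in replicate 3 depended on this choice. Because depth is unknown, the absence of a peak does not show absence of the mark.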
